A study of Mus musculus with 8 samples.

Results

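The integrated stress response and its secreted mitokines were described here through 10 genes, which were Atf4, Atf5, Ddit3, Trib3, Asns, Chac1, Fgf21, Gdf15, Sesn2 and Eif4ebp1. They were chosen by symbol out of 55487 gene identifiers in the deposited table. A minimum of 10 counts in each of the 8 libraries was met by 8 of these genes and by 15135 genes of the whole table, and was not met by the other 2, Fgf21 and Gdf15. RNA was sequenced from hindlimb muscle of 8 male C57BL/6J mice, 10 weeks old, whose hindlimbs were both held in casts for 8 days. Over those days each mouse received K14Q MOTS-c at 15 mg/kg/day, given intraperitoneally in 2 injections per day. MOTS-c is a peptide encoded within mitochondrial DNA, and the K14Q form carries glutamine in place of a lysine. All 8 mice shared the strain, sex, age, casting and peptide, so no level below can be set against untreated, uncast or wild-type-peptide muscle, which was not analysed here.

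In the integrated stress response, kinases that sense amino acid shortage, misfolded proteins, haem shortage or viral RNA phosphorylate the translation factor eIF2alpha. General translation falls, while the mRNA of the transcription factor ATF4 is translated more efficiently, and ATF4 then induces genes for amino acid supply, redox balance and feedback control. In muscle the same response is known to follow mitochondrial dysfunction, where FGF21 and GDF15 can be released as circulating signals called mitokines. Much of the control of ATF4 is on translation, which mRNA levels do not measure.

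ATF4 binds with C/EBP partners to a composite DNA element, and the letters TGATGNAA were searched on both strands in the 250 bases before each RefSeq start site (GRCm38.p6). A window was found for 9 of the 10 genes, Eif4ebp1 being the one without. These genes had 11 windows, Atf5 and Gdf15 having 2 each. The letters were present in 3 of the 11, those of Asns, Chac1 and Fgf21, and in 1134 of all 32851 windows (3.45%). The stretches around these matches are printed because 1 belongs to a gene of high level, 1 to a gene of low level that varied widely and 1 to a gene near the detection limit. They read 5′ to 3′ on the strand of the gene, with the matched letters in capitals; in Chac1 and Fgf21 the match is to the opposite strand.
Asns, chr6:7693214-7693243, minus strand: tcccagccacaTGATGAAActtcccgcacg
Chac1, chr2:119350992-119351116, plus strand: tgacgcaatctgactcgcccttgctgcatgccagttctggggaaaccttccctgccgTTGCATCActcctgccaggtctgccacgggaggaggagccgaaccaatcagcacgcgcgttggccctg
Fgf21, chr7:45615562-45615689, minus strand: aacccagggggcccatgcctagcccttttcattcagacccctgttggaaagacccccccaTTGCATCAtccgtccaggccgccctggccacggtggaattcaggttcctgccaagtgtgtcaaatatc
The match began 23 bases before the RefSeq start in Asns, 193 in Chac1 and 139 in Fgf21. In Asns it lies inside the transcribed region of the GENCODE annotation, which starts further upstream than RefSeq, and in the other 2 it lies outside. It describes letters in a window and not a measured binding site.

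The libraries held 23985356 to 33012497 counts per mouse. The sample labels name the tissue as vastus lateralis, whereas the series design and the study's methods name gastrocnemius, another hindlimb muscle. All 6 muscle fibre markers were abundant, with sums of 1582666 to 3206562 normalized counts per mouse, whereas the hepatocyte genes Apoa1 and Fgb were at 0 counts in every library, Ttr reached 0.917 normalized counts in 1 library and Alb lay between 0 and 6.65. In such bulk samples, fewer cells of a type and less RNA per cell cannot be told apart. Levels are given as normalized counts, that is, reads per gene divided by 1 size factor per library.

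Among the regulators, Atf4 was abundant, Atf5 was intermediate and the most even of the genes, Ddit3 was lower and Trib3 was low and uneven. Atf4 (ENSMUSG00000042406, chr15:80255184-80257541), the central transcription factor of the response, ranged from 2184 normalized counts in mouse 6 through a median of 2767 to 3814 in mouse 5, with a mean of 2875 ± 511 (SD, n = 8). Mice 5 and 8 stood above the other 6, the remaining mice reaching at most 2817. Atf5 (ENSMUSG00000038539, chr7:44812256-44816658), a related bZIP factor that is also used in the mitochondrial unfolded protein response, ranged from 549 in mouse 6 through 641 to 729 in mouse 3, with a mean of 644 ± 62.0 (SD, n = 8). No mouse stood apart, and the coefficient of variation, the SD as a percentage of the mean, was 9.62%. Of the exonic bases of Atf5, 82 (4.11%) overlap Il4i1 and Nup62 on the opposite strand, and whether the counting used strand is not given in the sources used here.

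Ddit3 encodes CHOP, a bZIP factor linked to cell death under prolonged endoplasmic reticulum stress. Ddit3 (ENSMUSG00000025408, chr10:127290774-127296288) ranged from 93.1 normalized counts in mouse 3 through 109 to 171 in mouse 5, with a mean of 119 ± 26.6 (SD, n = 8). Mouse 5 was highest and mouse 2 followed with 143, while the other 6 lay at 126 or below. The annotation shares 186 exonic bases of this gene (10.9%) with other genes, 68 of them with the antisense gene Mars and 105 with a second, shorter identifier also named Ddit3 that held 2 to 13 counts per library. Trib3 encodes a pseudokinase that is induced by ATF4 and CHOP and restrains them in feedback. Trib3 (ENSMUSG00000032715, chr2:152337422-152344032) ranged from 12.7 normalized counts in mouse 1 through 25.0 to 47.7 in mouse 5, with a mean of 26.7 ± 12.0 (SD, n = 8). Mice 4 and 5 stood above the rest, which reached at most 27.0. Its coefficient of variation was 45.0%, where counting error alone gives 19.5%.

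The enzymes lay at opposite ends of the scale. Chac1, a glutathione-degrading enzyme of the gamma-glutamylcyclotransferase family, is a known target downstream of ATF4 and CHOP. Chac1 (ENSMUSG00000027313, chr2:119351229-119354381) ranged from 1740 normalized counts in mouse 6 through 2669 to 3134 in mouse 2, with a mean of 2564 ± 532 (SD, n = 8). Mice 5 and 6 were lowest, with 1934 and 1740, and the other 6 lay at 2274 or above. Asns, which makes asparagine from aspartate and glutamine, is a standard readout of ATF4 activity in cultured cells. Asns (ENSMUSG00000029752, chr6:7675169-7693254) ranged from 24.3 normalized counts in mouse 7 through 44.4 to 86.2 in mouse 5, with a mean of 51.8 ± 22.4 (SD, n = 8). Mice 3 and 5 were the high ones, with 82.3 and 86.2, against 59.4 or less in the others. The coefficient of variation of Asns was 43.2%, where counting error alone gives 13.8%, and that of Chac1 was 20.8%.

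The mitokine transcripts were close to the detection limit. Fgf21, a hormone that acts through FGF receptors with the co-receptor beta-Klotho, had 34 counts over all 8 libraries, from 0 counts in mouse 5 to 12 in mouse 7. On the normalized scale Fgf21 (ENSMUSG00000030827, chr7:45613886-45615490) ranged from 0 through 3.66 to 13.2 normalized counts, the count of 0 in mouse 5 allowing a level of up to 2.75. Mouse 7 was the only mouse above 7 counts. Gdf15, a stress-induced hormone whose receptor GFRAL is known from the hindbrain, had 20 counts in all. Gdf15 (ENSMUSG00000038508, chr8:70629393-70632456) ranged from 0 in mice 1 and 8 through 3.09 to 4.59 normalized counts in mouse 5, and the counts of 0 allow levels of up to 3.19 and 3.28. At this depth no difference between mice was read from either gene, and these floors cover counting error only, since reads without molecular identifiers are not independent molecules.

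The receptor genes of the mitokines differed widely in level. Fgfr1 had a mean of 2860 ± 432 normalized counts (SD, n = 8), while Fgfr4 ranged from 19.1 to 47.7 and Fgfr2 from 10.8 to 40.3. Klb, which encodes beta-Klotho, lay between 0 and 6.65, and Gfral was at 0 counts in all 8 libraries. Of the 7 receptor genes listed, 5 met the count minimum.

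Of the genes that restrain mTORC1 signalling or its output, Eif4ebp1 was abundant and Sesn2 was low. Sesn2, a leucine-binding sestrin that inhibits mTORC1 and is induced by ATF4, lies at chr4:132492032-132510501 (ENSMUSG00000028893). Sesn2 ranged from 64.0 normalized counts in mouse 3 through 79.1 to 109 in mouse 5, with a mean of 80.4 ± 15.9 (SD, n = 8). Mouse 5 was highest and mouse 7 followed with 92.7. Eif4ebp1 (ENSMUSG00000031490, chr8:27260329-27276674) encodes 4E-BP1, which blocks cap-dependent translation when mTORC1 is inactive and is transcribed under ATF4. Eif4ebp1 ranged from 1837 normalized counts in mouse 2 through 2412 to 4156 in mouse 3, with a mean of 2826 ± 1012 (SD, n = 8). Mice 3, 4 and 5 lay between 3868 and 4156 and the other 5 at 2433 or below, so these levels fell into 2 separate clusters with a gap of 0.619 of the whole range.

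**Figure D1:**
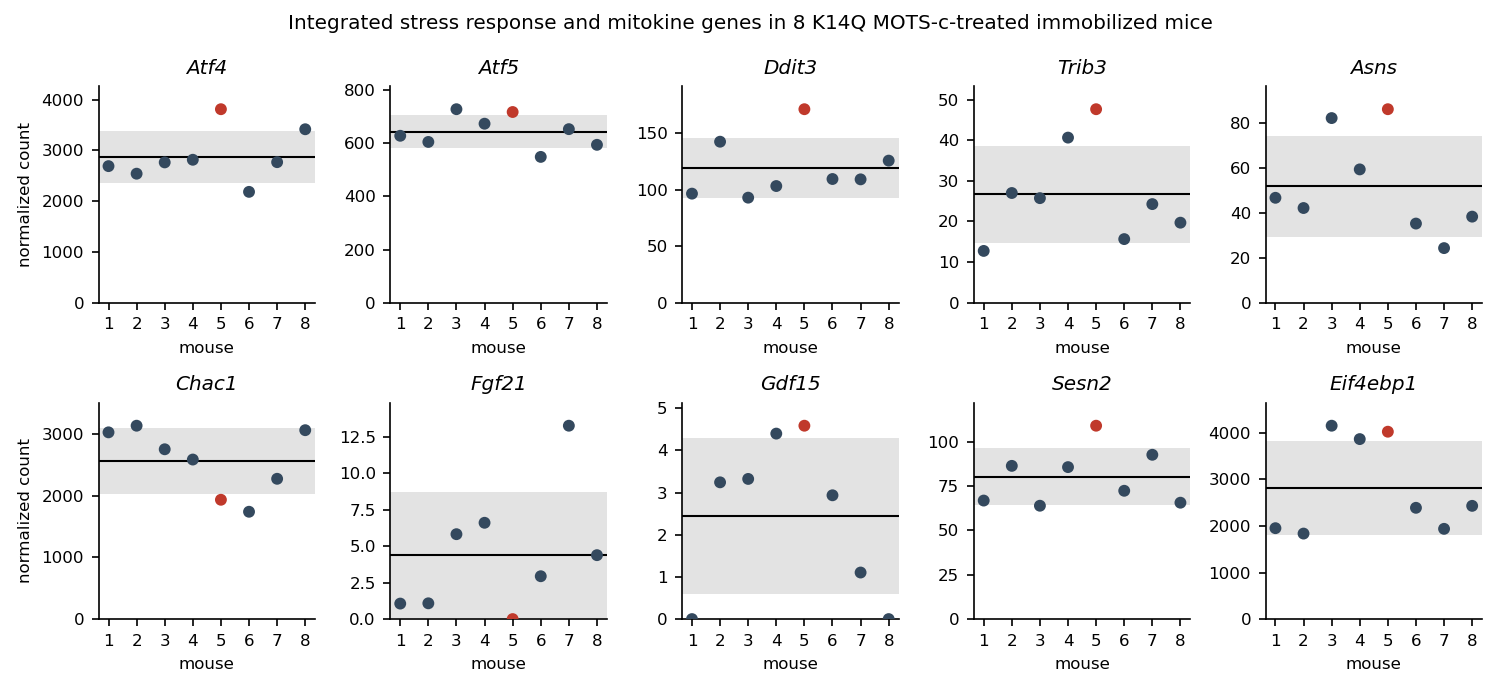
Normalized count (vertical axes, from 0) of each of the 10 genes in mice 1 to 8 (horizontal axes), with the mean as a line, mean ± SD as a grey band (cut at 0) and mouse 5 in red. Mouse 5 is highest for 5 of the 8 genes that met the count minimum (15.9% of all genes), and mice 3, 4 and 5 stand apart for Eif4ebp1.

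Levels were compared between genes after division by exonic length, as normalized counts per kb of exon. Chac1 came first with a mean of 1566 per kb, followed by Eif4ebp1 with 1287 and Atf4 with 1219. Chac1 was above Eif4ebp1 in 4 of 8 mice and Eif4ebp1 above Atf4 in 4 of 8, so neither pair of neighbours differed beyond its spread. Chac1 was above Atf4 in 7 of 8 mice, by 0.35 ± 0.39 on the log2 scale (SD, n = 8), a difference smaller than its spread. Their levels stood at percentiles 94.8, 93.6 and 93.2 of the 15135 genes.

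The next steps in the order were wider than the spread between mice. Atf4 exceeded Atf5 (323 per kb) by 1.90 ± 0.21 on the log2 scale (SD, n = 8) and Atf5 exceeded Ddit3 (69.5 per kb) by 2.24 ± 0.33, each in 8 of 8 mice. Ddit3 exceeded Sesn2 (23.1 per kb) by 1.58 ± 0.23, again in 8 of 8. Below it, Sesn2 was above Asns (18.9 per kb) in 6 of 8 mice, with a log2 difference of 0.38 ± 0.66, and Asns above Trib3 (12.6 per kb) in 7 of 8, with 0.60 ± 0.61. The first of these differences was smaller than its spread and the second about equal to it. Fgf21 (4.62 per kb) and Gdf15 (1.32 per kb) closed the order, and no fold is given for genes with libraries at 0.

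**Figure D2:**
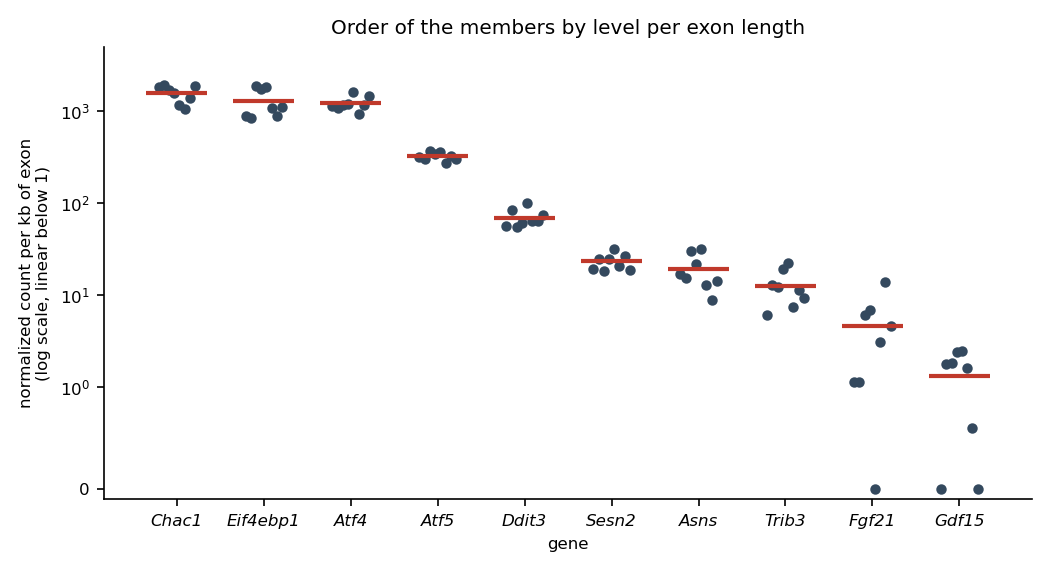
Normalized count per kb of exon (vertical axis, log scale, linear below 1) for the 10 genes in order of their mean (red line), with 1 point per mouse. Chac1, Eif4ebp1 and Atf4 overlap at the top (means of 1566, 1287 and 1219), and Fgf21 and Gdf15 lie at the bottom with libraries at 0.

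The spread between mice was set against that of other genes of the same level. The median coefficient of variation of the 8 genes was 21.6%, against 15.6% over the 15135 genes tested. The edgeR dispersion of each gene was expressed as the ratio of its own biological coefficient of variation to the trend over all genes at its level. Of the 8 genes, 5 lay above the trend, against a background of 29% of all genes. They were Eif4ebp1 with a ratio of 2.08, Asns with 1.87, Trib3 with 1.85, Chac1 with 1.28 and Atf4 with 1.03. Ddit3 lay at the trend with 0.996, and Sesn2 (0.784) and Atf5 (0.566) lay below it, the median of all genes being 0.746. Eif4ebp1, Asns and Trib3 were at percentiles 96.9, 95.5 and 95.3 of this ratio. Single mice carried part of this. Without mouse 5 the ratio was 0.809 for Atf4, 0.615 for Ddit3 and 0.492 for Sesn2. Without mouse 6 it was 0.842 for Atf4 and 0.988 for Chac1, so 2 of the 5 genes above the trend fell below it when 1 mouse was left out. Eif4ebp1, Asns and Trib3 stayed above it with each mouse left out in turn.

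**Figure D3:**
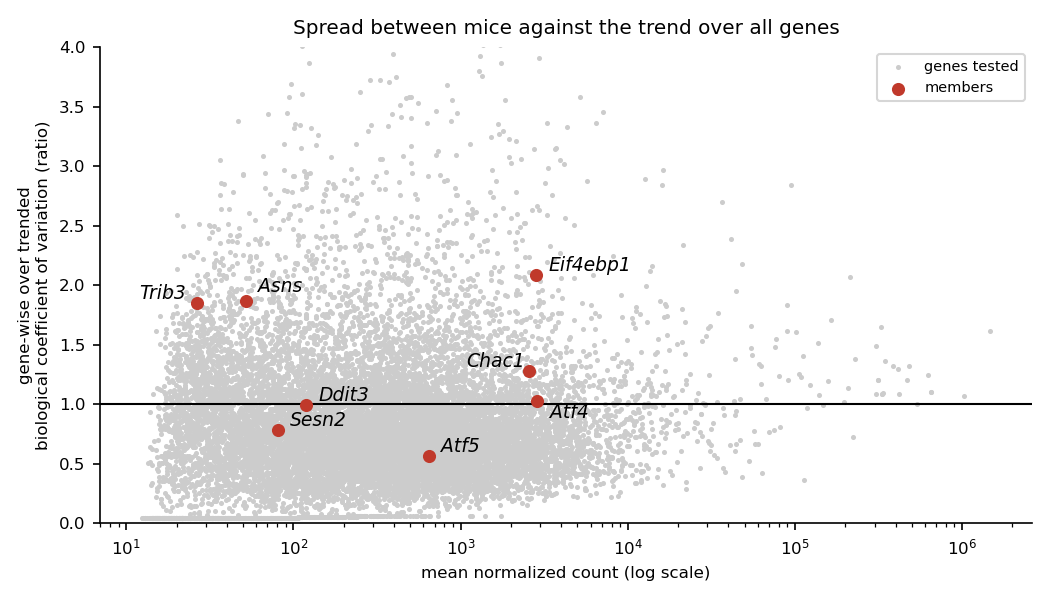
Ratio of the gene-wise to the trended biological coefficient of variation (vertical axis) against the mean normalized count (horizontal axis, log scale) for the 15135 genes (grey) and the 8 genes of the response that passed the minimum (red). Eif4ebp1, Asns and Trib3 lie near 2, Atf5 lies at 0.566, and 25 grey points above 4 are not drawn.

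Mouse 5 carried the highest level of 5 of the 8 genes, Atf4, Ddit3, Trib3, Asns and Sesn2, whereas it was highest for 15.9% of all genes. Its median deviation from the gene means was 0.51 on the log2(normalized count + 1) scale over the 8 genes and 0.009 over all genes. Chac1 went the other way, with 1934 normalized counts in mouse 5 against a median of 2669. Mouse 6 was lowest for 3 of the 8, Atf4, Atf5 and Chac1, against 7.53% of all genes, with a median deviation of -0.30 over the 8. Scaled to library totals alone, mouse 5 was highest for 4 of the 8 and for 9.45% of all genes. The sum of 3 red blood cell markers was also highest in mouse 5, at 15970 normalized counts against 4032 to 14124 in the other mice, and that of 4 Schwann cell markers was lowest there, at 1575 against 1814 to 3843. The part of these markers in the result was not tested. The fibroblast marker Lum was lowest in mouse 5, at 171 against up to 545, although the sum of the 5 fibroblast markers there, 12682, lay inside the range of the other mice (9846 to 18365).

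**Figure D4:**
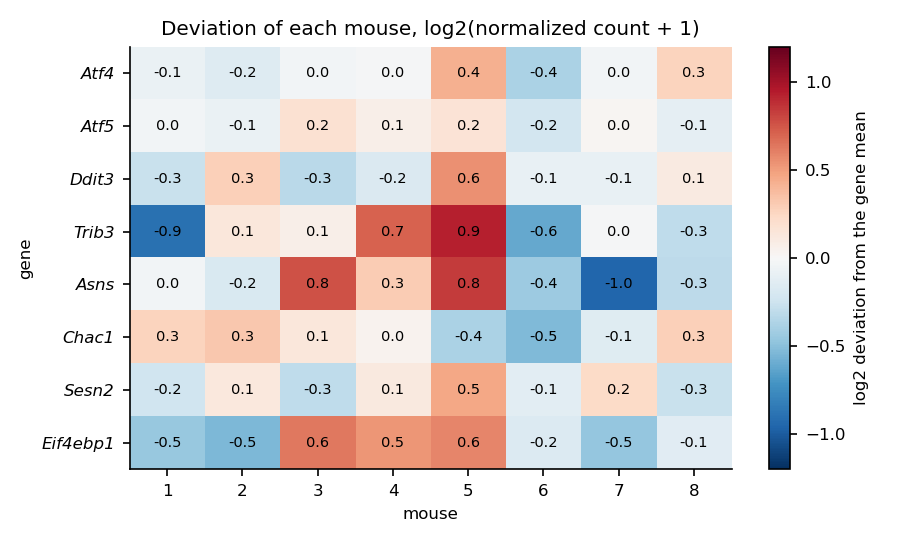
Deviation of each mouse (columns) from the mean of each gene (rows), as log2(normalized count + 1), in colour and as printed numbers. The column of mouse 5 is positive for 7 of the 8 genes and negative for Chac1, and that of mouse 6 is negative for all 8.

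Whether the genes moved together across the mice was measured with Pearson's r of log2(normalized count + 1) and a two-sided exact permutation test over all 40320 pairings, adjusted by Benjamini-Hochberg over 15134 genes. The smallest p that 8 mice allow is 2.48e-05, which adjusts to 0.375 for 1 gene alone, so at least 8 genes would have to reach it before any passed, and a count of 0 does not show that no gene was related. Eif4ebp1 was left out, along with its pairs, because its levels formed separate clusters; Asns, which shared its split, is described with it at the end. Of 21 pairs among the other 7 genes, r was positive for 18, and 0 passed the adjusted threshold (background 0.0% of genes for each of the 7 genes). At an unadjusted p below 0.05 there was 1 pair, Trib3 and Sesn2, with r = 0.74 (exact permutation p = 0.040, adjusted 0.68 in the scan for Sesn2 and 0.52 in that for Trib3) and Spearman's rho = 0.55 (exact permutation p = 0.17). Over all genes the share at that unadjusted level was 4.22% positive and 2.66% negative with Sesn2, and 4.65% and 4.59% with Trib3, so 1 pair of 21 is near the background. Without the 2 mice farthest from the Sesn2 median r was 0.74, without the 2 farthest from the Trib3 median it was 0.47, and without mouse 5 alone it was 0.56. Asns and Atf5 had r = 0.71 (exact permutation p = 0.051, adjusted 0.43 in the scan for Asns and 0.85 in that for Atf5) and rho = 0.74 (exact permutation p = 0.046), with r = 0.23 without the 2 mice farthest from the Asns median and 0.60 without the 2 farthest from that of Atf5.

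None of the correlations of Atf4 mRNA with the other 6 genes passed the threshold. Its r was 0.56 with Ddit3 (exact permutation p = 0.15), 0.55 with Trib3 (exact permutation p = 0.16), 0.54 with Atf5 (exact permutation p = 0.16) and 0.44 with Asns (exact permutation p = 0.28). Spearman's rho for the same genes was 0.26, 0.52, 0.48 and 0.40 (exact permutation p of 0.54, 0.20, 0.24 and 0.33). With Sesn2 r was 0.36 (rho = 0.24) and with Chac1 0.080 (rho = -0.071), exact permutation p of 0.38 and 0.86 for r and 0.58 and 0.88 for rho. The adjusted p lay between 0.88 and 0.99 for all 6. Without mice 5 and 6, the 2 farthest from the Atf4 median, r was between -0.43 and 0.10 for these 6 genes. Leaving out those mice also narrows the range of Atf4, from 2184 to 3814 normalized counts down to 2542 to 3419. For Chac1 r was 0.080 with all mice and 0.097 without mice 5 and 6.

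Across all 15134 genes, 0 followed Atf4 at the adjusted threshold in the exact permutation test, by Pearson's or by Spearman's correlation, and the smallest adjusted p was 0.375, the value for 1 gene at the smallest p the design allows. At an unadjusted p below 0.05, 457 genes were positively correlated (3.02%) and 488 negatively (3.22%). The genes most like Atf4 over the 8 mice were Catsper4 (r = 0.96), Wdfy1 (r = 0.96) and Fam53c (r = 0.95). Among those most like Asns were Apod (r = 0.98) and Ccdc9 (r = 0.97), and those most like Ddit3 were 9330159M07Rik (r = 0.97), Klhl6 (r = 0.95) and Casz1 (r = 0.93). These values of r describe likeness over 8 mice, since the genes were picked by them.

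The wider response was described with 98 genes in 10 lists, of which 92 met the count minimum. With Atf4, 7 of the 92 had a positive correlation at an unadjusted p below 0.05 (7.61%, against 3.02% of all genes) and 0 a negative one, and 0 passed after adjustment. The median r of the 92 genes was 0.19. The genes at p below 0.05 included Ppp1r15a, which encodes the GADD34 subunit that dephosphorylates eIF2alpha, with r = 0.82 (adjusted p = 0.725, exact permutation p = 0.014) and rho = 0.88 (exact permutation p = 0.0072). Ppp1r15a ranged from 1200 normalized counts in mouse 1 to 3646 in mouse 5. Clpx, a subunit of the mitochondrial ClpXP protease, had r = 0.92 (adjusted p = 0.64, exact permutation p = 0.0026) with rho = 0.93 (exact permutation p = 0.0022), and leaving out mice 5 and 6 gave r = 0.94. At the other end, the genes with the lowest r in their lists reached -0.65 for Sesn3, a sestrin, -0.62 for Dele1, which relays mitochondrial stress to the eIF2alpha kinase HRI, and -0.55 for the mitochondrial co-chaperone Dnaja3 (exact permutation p of 0.090, 0.11 and 0.17, adjusted p of 0.85, 0.86 and 0.89). Their rho was -0.45, -0.55 and -0.21 (exact permutation p of 0.27, 0.17 and 0.62), and r without mice 5 and 6 was -0.52, -0.22 and -0.26. The lowest in the other 7 lists lay between -0.46 for Aldh1l2 and -0.21 for Fgfr2. For Ppp1r15a r without those mice was 0.52, and for Slc7a1, a cationic amino acid transporter, it went from 0.73 to 0.013.

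Of the 7 genes tested, Trib3 had the largest number of such genes. Of the 92, 20 were positively correlated with Trib3 at an unadjusted p below 0.05 (21.7%, against 4.65% of all genes) and 2 negatively (against 4.59%), with 0 after adjustment and a median r of 0.44. They included 6 of 12 cytosolic aminoacyl-tRNA synthetases, which charge tRNAs with amino acids, 5 of 12 genes of the endoplasmic reticulum unfolded protein response and 3 of 6 amino acid transporters. Slc38a2, a neutral amino acid transporter, had r = 0.93 with Trib3 (adjusted p = 0.32, exact permutation p = 0.00037) with rho = 0.95 (exact permutation p = 0.0011), and r = 0.99 once the 2 mice at the extremes of Trib3, mice 1 and 5, were left out. Aars, the alanyl-tRNA synthetase, and Hsp90b1, an endoplasmic reticulum chaperone, were chosen after their values were seen and gave r = 0.91 and 0.90 with Trib3 (adjusted p = 0.32 and 0.36, exact permutation p = 0.0010 and 0.0023). Spearman's rho was 0.86 for both (exact permutation p = 0.011), and leaving out those 2 mice gave r = 0.77 and 0.94.

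The other 5 of the 7 genes gave smaller counts among the 92. Asns had 12 positive and 3 negative correlations at an unadjusted p below 0.05 (5.15% and 6.42% of all genes), with a median r of 0.29. Sesn2 had 12 positive and 0 negative (4.22% and 2.66%), with a median of 0.19, and Atf5 had 11 and 0 (2.35% and 2.81%), with a median of 0.37. Ddit3 had 3 and 4 (2.27% and 2.33%), with a median of 0.03. Chac1 had 0 positive and 4 negative (1.45% and 1.35%), with a median of -0.17. None of the 92 passed the adjusted threshold of the exact permutation test with any of these 5 genes. The 92 genes share libraries, so these counts are not independent, and the Ddit3 values include the reads it may share with Mars.

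**Figure D5:**
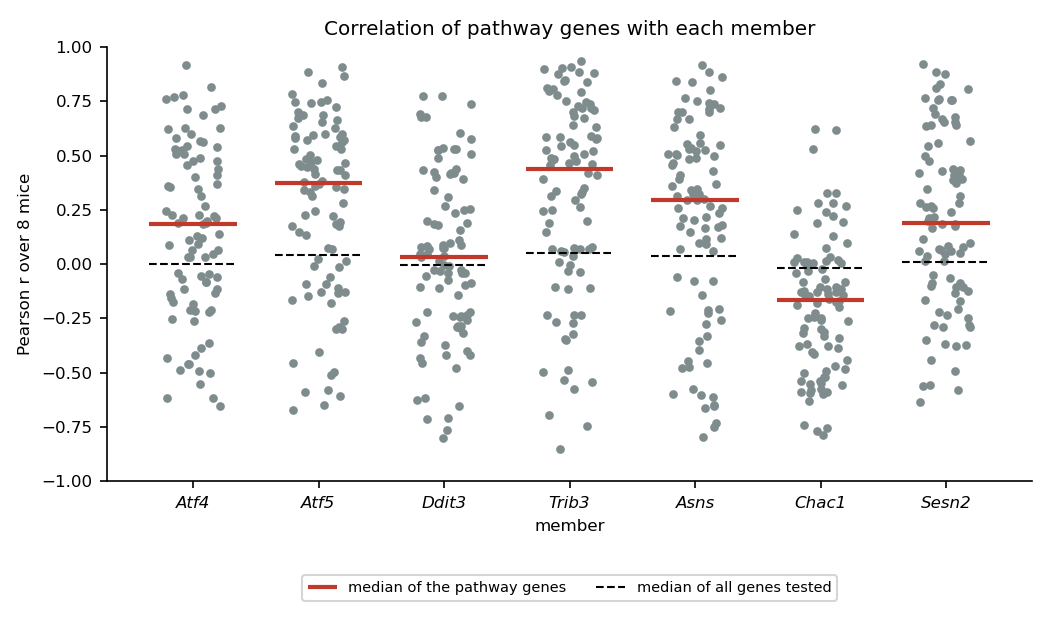
Pearson's r over 8 mice (vertical axis) of the 92 pathway genes (points, spread sideways for visibility) with each of 7 genes of the response (horizontal axis), with the median of the 92 in red and that of all genes tested dashed. Of these 7 the red median is highest for Trib3 (0.44) and lowest for Chac1 (-0.17), and no point passed the adjusted threshold.

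The lists also showed which branches were abundant in this muscle. Per kb of exon the most abundant gene was Eif2b5, a subunit of the eIF2 exchange factor, in the eIF2 list (1930 ± 162 normalized counts, SD, n = 8), Eprs, the glutamyl-prolyl-tRNA synthetase, among the synthetases (15895 ± 2119) and Hspa9, the mitochondrial HSP70, among mitochondrial chaperones and proteases (12230 ± 1634). Shmt2, the mitochondrial serine hydroxymethyltransferase, led the amino acid and one-carbon list (497 ± 46.0), Calr, a calcium-binding chaperone, the endoplasmic reticulum list (4308 ± 508) and Eif4ebp2, a paralog of Eif4ebp1, the mTORC1 list (8195 ± 509). The muscle ubiquitin ligase Trim63 led the disuse list with 43886 ± 10851. In some of these genes 1 mouse stood far from the rest. Mthfd2, a mitochondrial one-carbon enzyme, had 336 normalized counts in mouse 5 and 76.4 to 174 in the others, and Slc7a1 had 312 in mouse 5 and 86.0 to 168 in the others. Atf3, a bZIP partner induced by stress, ranged from 42.2 to 231 with a coefficient of variation of 58.8%.

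The split of Eif4ebp1 between mice 3, 4 and 5 and the other 5 was then followed in other genes, as a description of a grouping read from Eif4ebp1 itself and not of a condition. All 3 mice lay above the other 5 for 5.56% of all genes and all 3 below for 6.27%. Among the 92 pathway genes, 12 lay above (13.0%) and 4 below. They included 3 of 12 synthetases (Lars, Mars and Sars), 3 of 12 endoplasmic reticulum genes (Edem1, Atf6 and Ern1) and both Atf3 and Cebpg. Psat1, which makes phosphoserine, lay between 71.5 and 90.8 normalized counts in the 3 mice and between 43.2 and 58.4 in the other 5. The 4 genes below were Psph, Gpt2, Eif2b2 and Castor1. Psph, the phosphatase that follows Psat1 in serine synthesis, lay between 64.9 and 89.9 in the 3 mice and between 93.0 and 134 in the other 5, and Gpt2, an alanine aminotransferase, between 7015 and 8321 against 8768 to 12533. Of the other genes described here that met the count minimum, Atf5 and Asns shared the split. The genes most like Eif4ebp1 over the 8 mice were Gm16439, Gm6532 and Cry2, a circadian repressor, each with r = 0.98. Cry2 had 2974 to 3235 normalized counts in the 3 mice and 1635 to 2164 in the other 5.

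The same 3 mice had the lowest sums of the 6 muscle fibre markers, 1582666 to 2287940 normalized counts against 2510266 to 3206562, with Ckm, Myh4 and Myh1 below the other 5 mice in each. Of the 6 macrophage markers 1, Cd68, lay above (586 to 931 against 212 to 575), while the macrophage sums overlapped, at 3118 to 4726 against 1956 to 3685. The red blood cell sums also overlapped, at 5519 to 15970 against 4032 to 7502, with Alas2 above as 1 of 3 markers. The share of counts taken by the 10 most abundant genes was 18.8% to 21.7% in the 3 mice and 22.7% to 26.2% in the other 5. The part of these markers and of this share in the split of Eif4ebp1 was not tested. Its lowest level in the 3 mice was 1.59 times the highest in the other 5, and 1.57 to 1.63 times under the 3 other scalings tried. With each mouse other than mouse 5 left out in turn it was 1.59 to 1.65 times. Leaving out a mouse can only keep or raise this ratio, so those values do not show stability.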

How the data were processed

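Poly-adenylated RNA was sequenced from the muscle of 8 mice, 1 library each. Per the labels, the reads were handled with FastQC, fastp and STAR on GRCm38.p6. Per the methods, the authors took gene counts from summarizeOverlaps and normalized these in DESeq2. The annotation release, strand setting and treatment of multiply mapped reads are not given in the sources used here. The deposited values are a signal, in which each library's counts were divided by its own size factor (0.906 to 1.20). Whole reads were recovered for 100% of values within 0.01 of a read and used for depth, count minimums and dispersions. The authors' scaling was kept for levels, and the log2 scale used a pseudocount of 1.

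GENCODE M21 (GRCm38) gave symbols, positions and exonic lengths for 55227 of the 55487 identifiers. Promoter windows came from RefSeq. Ddit3 was read from the longer of its 2 identifiers. Dispersions came from estimateDisp of edgeR with an intercept only, on genes that reached 10 counts in all 8 libraries. Correlations were tested with exact permutation of 40320 pairings, two-sided, with Benjamini-Hochberg adjustment and a threshold of 0.05. With 1 condition, no comparison between groups was made. Each p-value is the share of pairings of these mice that gave a correlation at least as large in size. The labels give no batch.

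The genes named were the 10 members, the 3 most correlated with each of Atf4, Asns, Ddit3 and Eif4ebp1, and, of each pathway list, the most abundant per kb, those with the highest and lowest r with Atf4 and the one with the largest coefficient of variation; 1 gene that this rule names is not reported here. Members and lists were chosen with earlier results of these data known. Other genes (those of the Eif4ebp1 split, Aars and Hsp90b1) and the alternatives that remove GC content and length trends, or that recount mouse 5 and the Eif4ebp1 split, were chosen after seeing the data. The other alternatives were TMM factors, library totals, medians, a pseudocount of 5, Spearman correlation, no filter and leaving out each mouse. On simulated data over 15135 genes, 99.5% of 200 planted genes came back with the planted sign. These were simulated independently and correlated with the planted pattern itself, free of noise. That share therefore does not measure what a scan with a measured gene could detect. The tools were edgeR 4.0.16 in R 4.3.3, and Python 3.11.15 with matplotlib 3.10.9, pandas 2.3.3, scipy 1.17.1 and numpy 2.4.6.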

Additional observations from a re-analysis of the deposited data

Results flagged for a closer look

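In 77 results over the 8 mice, the gap between the most extreme mouse and its nearest neighbour, divided by the whole range, was set against Dixon's critical value for 8 samples. It was exceeded by 5, and by none of the 10 genes of the response. Chance gives 3.85 for independent results picked without regard to spread. Here some genes, Mthfd2, Slc7a1 and Runx1 among them, were named for the largest coefficient of variation in their list. The list sums also contain named genes, so the 2 numbers cannot be compared directly. Mthfd2 in mouse 5 gave 0.625, with 336 normalized counts against 76.4 to 174. Slc7a1 in mouse 5 gave 0.638, with 312 against 86.0 to 168. Eif4ebp3, a paralog of Eif4ebp1, gave 0.753 in mouse 8, with 253 against 140 to 168. Runx1, a transcription factor induced by denervation, gave 0.534 in mouse 4, with 1401 against 409 to 872. The sum of 4 Schwann cell markers gave 0.713 in mouse 7, with 3843 against 1575 to 2225.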

How the results depend on the processing

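No paired analysis was possible because the mice form 1 group. Of 142 values under the alternatives other than leaving out a mouse, 139 kept their direction and side of the threshold or moved by less than the spread. With library totals as the only scaling, the coefficient of variation moved to 16.4% for Atf5 and 43.5% for Eif4ebp1. The correlation of Chac1 with Atf4 changed sign with Spearman correlation (-0.071), without mouse 6 (-0.56) and without mouse 8 (-0.093), over a range of -0.56 to 0.65 with each mouse left out. The correlation of Sesn2 with Atf4 changed sign without mouse 5 (-0.20), over a range of -0.20 to 0.64. The cause was not tested. Of 320 values with a mouse left out, 3 changed sign (given above), and the other 317 kept their sign and side of the adjusted threshold or, without a test, moved by less than their spread. Leaving out 1 of 8 mice cannot move a mean by its SD, and the other spreads came from the same left-out values. For levels and spreads this tally could therefore hardly come out otherwise, and it does not show stability. The left-out dispersion ratios lay on both sides of the trend for some genes, so the number of genes above it ranged from 4 to 6. Atf4 fell below without mouse 5 (0.809) or 6 (0.842), Chac1 without mouse 6 (0.988), and Ddit3 ranged from 0.615 to 1.13. No gene passed the adjusted exact permutation test with Atf4 under the alternatives run, which says nothing of stability: with 7 mice the smallest possible p is 0.000198, and 61 genes would have to reach it. At an unadjusted p below 0.05 there were 748 to 1182 genes of 15099 to 15134 tested, and 1441 of 31135 without the filter. Mouse 5 was highest for 4 (library totals, 9.45% of all genes) to 7 (without mouse 3, 17.0% of all genes) of the 8 genes. Depth limits Fgf21 and Gdf15 most, with 34 and 20 counts in all, and 8 mice limit every correlation.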
